A study of Macaca mulatta and Mus musculus and Rattus norvegicus with 12 samples.

Results

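NT5E and 8 other genes of the purinergic adenosine pathway (ENTPD1, ENTPD2, ADA, ADORA1, ADORA2A, ADORA2B, ADORA3 and P2RX7) were followed in osteocyte-enriched bone from the calvaria (the roof of the skull) and the tibia. The members were chosen with earlier results of these data known, and were found by their symbols in the count tables of 3 species. All 9 had an entry in each table, out of 22339 symbols with reads in mouse, 19234 in rat and 18894 in macaque. In mouse all 9 had reads, in rat 6 and in macaque 7. NT5E entered the list because its level differed between the sites, so its values are given as a description without a test.

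Cells release ATP through channels, by exocytosis and on injury. On the cell surface CD39 (ENTPD1) and the related ENTPD2 remove phosphates from ATP, and CD73 (NT5E) turns the resulting AMP into adenosine, which adenosine deaminase (ADA) converts to inosine. Adenosine acts on the G protein-coupled receptors A1, A2A, A2B and A3 (ADORA1, ADORA2A, ADORA2B and ADORA3), whereas P2RX7 is an ion channel opened by ATP itself. In bone, osteocytes are known to release ATP under mechanical load, and CD73 is also a common surface marker of stromal cells of the marrow.

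The animals were 4-month-old C57BL6 mice, 6-month-old Wistar rats and rhesus macaques, all female and without any genetic change or treatment. Macaques were labelled as 4 to 6 months old. The methods text counts their age in years instead, and this was not resolved. The 12 libraries comprised 2 of mouse calvaria (M4 and M8) and 2 of mouse tibia (M5 and M7), each pooled from 3 animals, and 1 each of rat calvaria (R1) and tibia (R3), each pooled from 2 animals. In macaque each library came from 1 animal, with G1, G3 and T1 made from calvaria and G2, G4 and T2 from tibia. Skull and tibia were described as paired without saying which libraries belong together, and since mouse and rat libraries are pools, p-values measure only the spread between these libraries. Bone was freed of periosteum and treated briefly with collagenase, and marrow was spun out of the rodent tibias, so cells other than osteocytes could remain.

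Reads on named genes numbered 13934813 to 16826535 in mouse, 12233256 and 14255423 in rat and 7951585 to 10342459 in macaque, which was sequenced on another lane than the rodents. Species and lane therefore cannot be told apart. The 6 osteocyte markers (SOST, DMP1, MEPE, PHEX, FGF23 and PDPN) all had reads in mouse and macaque, while FGF23 was at 0 in both rat libraries. Their summed level was higher in every tibia than in every calvaria of the same species: 11223 to 15246 against 1520 to 2745 CPM in mouse, 11162 against 822 CPM in rat, and 11692 to 26573 against 7529 to 8658 CPM in macaque. Such a sum follows its most abundant markers, and the paper lists SOST and MEPE as higher in tibia in all 3 species. Of the 5 markers with reads in every species, 5 in mouse and 2 in macaque were higher in tibia without overlap. Of all such symbols 20.8% in mouse and 14.5% in macaque were. The macaque median log2 fold change of the 5, calvaria over tibia, was -0.35. Neutrophil markers summed to 124749 to 158147 CPM in mouse calvaria and 72641 to 83522 CPM in mouse tibia. The corresponding macaque sums were 25767 to 43295 and 5048 to 9691 CPM, so these transcripts of myeloid cells were present at both sites and higher in calvaria. In such bulk samples, fewer cells of a type and less RNA per cell cannot be told apart.

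NT5E was higher in tibia than in calvaria in all 3 species. In mouse, 127 reads (M4) and 104 reads (M8) were counted in calvaria and 680 (M5) and 624 (M7) in tibia. As normalized CPM, scaled by the reads on the genes tested and by TMM factors, these were 12.1 and 11.6 CPM in calvaria and 56.6 and 62.8 CPM in tibia. Both tibia libraries thus stood far above both calvaria libraries, as 20.8% of the shared mouse symbols stood above without overlap, with means of 59.7 ± 4.37 against 11.8 ± 0.360 CPM (SD, n = 2 each). Calvaria over tibia, the log2 fold change was -2.33 (SE 0.220), which is a 5.04-fold higher level in tibia.

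In rat, NT5E had 135 reads in calvaria (15.6 CPM) and 579 in tibia (72.9 CPM). The level was 4.69-fold higher in tibia (95% exact interval 3.88 to 5.69, covering counting error only), and the log2 ratio with 1 read added was -2.22. This was the only member past the rat threshold of 2 on the log2 scale, which 7.16% of the 10536 shared symbols passed in either direction and 6.39% towards tibia. With 1 library a site, no test was possible in rat.

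In macaque, NT5E had 64 (G1), 31 (G3) and 43 (T1) reads in calvaria, or 11.6, 5.95 and 7.79 CPM. The tibia libraries had 104 (G2), 132 (G4) and 100 (T2) reads, or 17.1, 22.8 and 14.6 CPM. The lowest tibia library lay above the highest calvaria library, as for 14.5% of the shared symbols, and this also held among the G libraries alone and for T1 against T2. The means were 18.2 ± 4.22 CPM in tibia and 8.46 ± 2.91 CPM in calvaria (SD, n = 3 each). This gave a log2 fold change of -1.1 (SE 0.336), a 2.14-fold higher level in tibia, and leaving out each library in turn gave values from -1.40 to -0.90.

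**Figure D1:**
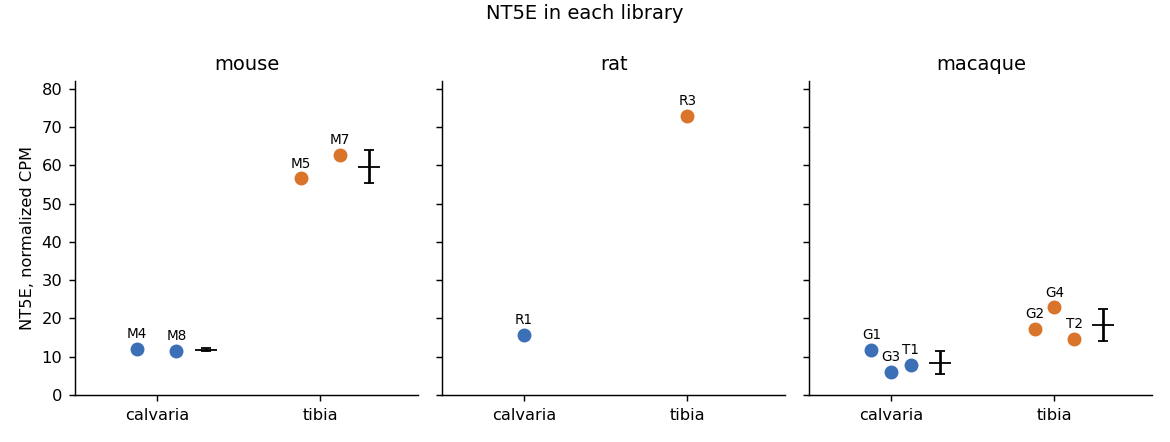
Normalized CPM of NT5E in each of the 12 libraries, by species and site. Points are libraries and the bars beside them show the mean and SD where a site had more than 1 library; every tibia point lies above every calvaria point of its species, at 56.6 and 62.8 against 11.6 and 12.1 CPM in mouse.

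For reference, mouse Nt5e lies on chromosome 9 of GRCm38 from 88327197 to 88372092 on the plus strand in GENCODE vM21, with 9 exons in its longest transcript, and no other annotated gene overlaps it. Counting disregarded strand, so overlapping protein-coding genes are named where a member has one. In the same annotation Entpd1 overlaps 3 pseudogene or noncoding entries and P2rx7 overlaps 1 microRNA gene. Markers other than those of osteocytes also differed between the sites, in all 3 species or in some. The 5 stromal and pericyte markers (PDGFRB, LEPR, CXCL12, THY1 and RGS5), none of them at 0, summed to 2761 to 3062 CPM in mouse tibia and 1528 to 1548 CPM in mouse calvaria. They summed to 3179 and 1780 CPM in rat, and to 1387 to 2183 and 781 to 1185 CPM in macaque. Of these markers, 2 of 5 were called higher in tibia in macaque and 0 of 5 in mouse over the shared symbols, although 2 of 5 were called in mouse over all symbols. The 5 endothelial markers, none at 0, summed to 231 to 237 CPM in mouse tibia and 113 to 160 CPM in mouse calvaria, and to 549 and 260 CPM in rat. In macaque their sums overlapped, at 572 to 737 CPM in tibia and 527 to 734 CPM in calvaria. The 4 cartilage markers summed to 798 to 954 CPM in mouse tibia and 39.6 to 124 CPM in mouse calvaria, where MATN3 was at 0. They were also higher in rat tibia (49.5 CPM, MATN3 at 0) than in rat calvaria (12.3 CPM, COL2A1 at 0). The macaque sums of the 3 cartilage markers with an entry overlapped between the sites and lay the other way in their medians, at 0.865 to 9.19 CPM in tibia and 8.37 to 16.5 CPM in calvaria. The part of these cells in the NT5E difference was not tested.

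Upstream of CD73, the main CD39 gene did not share the pattern of NT5E. ENTPD1 had 646 (M4) and 626 (M8) reads in mouse calvaria and 560 (M5) and 494 (M7) in mouse tibia, or 61.4 and 69.6 against 46.6 and 49.7 CPM. Both calvaria libraries were the higher ones, without overlap, as for 17.6% of all mouse symbols in that direction. Its log2 fold change of 0.44 (SE 0.259) was not called (adjusted p = 0.781, edgeR quasi-likelihood fit, Benjamini-Hochberg adjusted over 22339 symbols). A gene was called where its false discovery rate was under 0.2 with a fold above 1.1, and 2.28% of all mouse symbols met this, 0.712% towards calvaria and 1.57% towards tibia.

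In macaque ENTPD1 had 350 (G1), 350 (G3) and 329 (T1) reads in calvaria, or 63.7, 67.2 and 59.6 CPM. The tibia libraries had 374 (G2), 281 (G4) and 410 (T2) reads, or 61.7, 48.6 and 59.8 CPM. The sites overlapped, and the log2 fold change was 0.16 (SE 0.208, adjusted p = 0.684, edgeR quasi-likelihood fit, Benjamini-Hochberg adjusted). The interval of 2 SE around it ran from -0.26 to 0.57. In rat ENTPD1 was listed at 0 reads in both libraries, where 0 reads allow up to 0.346 CPM in R1 and 0.378 CPM in R3 for counting error only. The B cell markers CD79A and PAX5 were also at exactly 0 in both rat libraries, and whether the rat gene models could collect reads of ENTPD1, ADORA3 and P2RX7 was not tested.

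ENTPD2, an ectonucleotidase that mainly converts ATP to ADP, went in opposite directions in the rodents. In mouse it had 29 (M4) and 23 (M8) reads in calvaria and 53 (M5) and 61 (M7) in tibia, or 2.76 and 2.56 against 4.41 and 6.14 CPM. Tibia was the higher site without overlap, as for 18.2% of all mouse symbols, but the log2 fold change of -0.98 (SE 0.545) was not called (adjusted p = 0.742, edgeR quasi-likelihood fit, Benjamini-Hochberg adjusted). In rat ENTPD2 had 118 reads in calvaria (13.6 CPM) and 30 in tibia (3.78 CPM), a 3.60-fold higher level in calvaria (95% exact interval 2.39 to 5.57, counting error only). Its rat log2 ratio of 1.81 was the largest of any member towards calvaria and stayed under the threshold, which 0.769% of the shared symbols passed in that direction. With TMM factors, the scaling used for the other two species, it was 2.01 and past the threshold. In macaque it was listed at 0 in all 6 libraries.

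A limit applies to the mouse count. In GENCODE vM21 Entpd2 shares 612 of its 2128 exonic bases with Npdc1 on the same strand, and Npdc1 itself had 294 to 956 reads. The gene model that was counted had 1937 exonic bases, so its overlap can differ. Reads from the shared stretch cannot be assigned with certainty.

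ADA, which removes adenosine, was not called in mouse or macaque, although intervals of 2 SE reached 1.13 and 1.09 on the log2 scale. In mouse it had 180 (M4) and 101 (M8) reads in calvaria and 151 (M5) and 89 (M7) in tibia, or 17.1 and 11.2 against 12.6 and 8.95 CPM. These ranges overlapped, and the log2 fold change was 0.40 (SE 0.364, adjusted p = 0.798, edgeR quasi-likelihood fit, Benjamini-Hochberg adjusted over the shared symbols). Rat values were 189 reads (21.8 CPM) in calvaria and 177 reads (22.3 CPM) in tibia, a log2 ratio of -0.03 that turned to 0.17 with TMM factors. The exact 95% interval of the rat ratio of calvaria to tibia, 0.792 to 1.21, bounds a site difference in these 2 libraries for counting error only.

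In macaque ADA summed to 72 (G1), 72 (G3) and 60 (T1) reads in calvaria, or 13.1, 13.8 and 10.9 CPM. In tibia it summed to 49 (G2), 54 (G4) and 68 (T2) reads, or 8.08, 9.34 and 9.92 CPM. All calvaria libraries were above all tibia libraries, as for 16.0% of the shared symbols in that direction. The log2 fold change of 0.47 (SE 0.314) was not called (adjusted p = 0.385, edgeR quasi-likelihood fit, Benjamini-Hochberg adjusted). A second macaque entry without introns carries the same symbol and gave between 13% (G4) and 43.3% (T1) of these reads. On the entry with introns alone, T1 had 34 reads and T2 53, so the order in that pair of libraries turned.

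Of the adenosine receptors, ADORA1 showed the widest difference in mouse. The A1 receptor, which lowers cyclic AMP, had 8 (M4) and 3 (M8) reads in calvaria and 45 (M5) and 28 (M7) reads in tibia, or 0.761 and 0.334 against 3.74 and 2.82 CPM. Both tibia libraries were higher without overlap. This was a log2 fold change of -2.55 (SE 0.801), or 5.84-fold higher in tibia, with an adjusted p of 0.246 (edgeR quasi-likelihood fit, Benjamini-Hochberg adjusted), so it was not called. It was called by edgeR's exact test (adjusted p = 0.108, Benjamini-Hochberg adjustment), while DESeq2 gave an adjusted p of 0.300. The edgeR quasi-likelihood fit also called it without M4 (-3.27, adjusted p = 0.00105) and without M8 (-2.12, adjusted p = 0.0347), where calls over all genes rose as well.

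In GENCODE vM21 mouse Adora1 shares 1162 of its 5785 exonic bases with Mybph on the opposite strand. The gene model that was counted had 5819 exonic bases. Mybph had 0 and 6 reads in calvaria and 10 and 4 in tibia. In rat, ADORA1 had 30 reads in calvaria (3.46 CPM) and 25 in tibia (3.15 CPM), with a log2 ratio of 0.13. The rat libraries thus lay close together, and the interval of their ratio of calvaria to tibia ran from 0.624 to 1.95. ADORA1 was listed at 0 in all 6 macaque libraries, where 0 reads allow up to 0.438 to 0.576 CPM for counting error only. The markers CD3E, CD79B and CKM were also at 0 at both sites in macaque. Whether the macaque gene models could collect reads of ADORA1 and ENTPD2 was not tested.

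ADORA2A, whose receptor raises cyclic AMP and is well known on leukocytes, was at the edge of detection in mouse. It had 1 (M4) and 5 (M8) reads in calvaria and 2 (M5) and 7 (M7) in tibia. The mouse log2 fold change of -0.41 (SE 1.36, adjusted p = 0.949, edgeR quasi-likelihood fit, Benjamini-Hochberg adjusted) allows a wide range of differences, from -3.14 to 2.32 at 2 SE. The rat counts were 45 in calvaria (5.19 CPM) and 36 in tibia (4.54 CPM), a log2 ratio of 0.19.

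In macaque ADORA2A had 36 (G1), 65 (G3) and 51 (T1) reads in calvaria, or 6.55, 12.5 and 9.24 CPM, against 49 (G2), 27 (G4) and 44 (T2) in tibia, or 8.08, 4.67 and 6.42 CPM. The sites overlapped through G1. Its log2 fold change was 0.56 (SE 0.391, adjusted p = 0.404, edgeR quasi-likelihood fit, Benjamini-Hochberg adjusted).

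ADORA2B encodes the receptor of lowest adenosine affinity. In mouse it had 27 (M4) and 32 (M8) reads in calvaria and 32 (M5) and 17 (M7) in tibia, or 2.57 and 3.56 against 2.66 and 1.71 CPM, which overlapped. The rat counts were 9 in calvaria and 4 in tibia. Macaque calvaria had 47 (G1), 51 (G3) and 41 (T1) reads, or 8.55, 9.79 and 7.42 CPM, and tibia had 71 (G2), 73 (G4) and 57 (T2), or 11.7, 12.6 and 8.32 CPM. T2 fell within the range of the calvaria libraries. Log2 fold changes were 0.48 in mouse (SE 0.572) and -0.34 in macaque (SE 0.338), with adjusted p of 0.839 and 0.572 (edgeR quasi-likelihood fit, Benjamini-Hochberg adjusted).

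ADORA3 was the only one of the members tested that was called in either species. The A3 receptor is best known from mast cells and other leukocytes. In macaque it had 34 (G1), 76 (G3) and 13 (T1) reads in calvaria, or 6.19, 14.6 and 2.35 CPM. In tibia it had 26 (G2), 24 (G4) and 4 (T2) reads, or 4.29, 4.15 and 0.584 CPM. G3 was far above all others and T2 far below, while T1 lay under G2 and G4, so the sites overlapped.

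The macaque log2 fold change of ADORA3 was 1.35 (SE 0.581), or 2.56-fold higher in calvaria, with an adjusted p of 0.149 (edgeR quasi-likelihood fit, Benjamini-Hochberg adjusted over 18894 symbols). At the same thresholds 19.7% of all macaque symbols were called, 10.3% towards calvaria and 9.43% towards tibia, so 1 of the 6 members tested besides NT5E is a share near the background. The call was lost without G3 (log2 fold change 0.52, adjusted p = 0.749) and without T2 (0.87, adjusted p = 0.273), both from the edgeR quasi-likelihood fit. It was also lost with edgeR's exact test (adjusted p = 0.317) and with DESeq2 (adjusted p = 0.219). The call held in the edgeR fit with a block for the assumed pairs (1.35, adjusted p = 0.0282), with the letter of the library as a batch (1.43, adjusted p = 0.0199), and without each of the other 4 libraries (adjusted p = 0.0116 without T1 to 0.189 without G1). The T libraries were low at both sites, and within the G and within the T libraries calvaria was above tibia in every case. Macaque leukocyte markers moved the same way: 4 of 4 neutrophil markers with an entry and 2 of 4 macrophage markers were called higher in calvaria over all symbols. Neither list had a marker at 0, and the macrophage sum overlapped, at 272 to 584 CPM in calvaria and 286 to 405 CPM in tibia. Their part in the ADORA3 difference was not tested.

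In mouse ADORA3 had 80 (M4) and 158 (M8) reads in calvaria and 86 (M5) and 74 (M7) in tibia, or 7.61 and 17.6 against 7.16 and 7.44 CPM. Calvaria was higher without overlap, but M4 exceeded M7 only slightly. Its log2 fold change was 0.79 (SE 0.450, adjusted p = 0.766, edgeR quasi-likelihood fit, Benjamini-Hochberg adjusted) and fell to 0.04 without M8. Mouse Adora3 shares 779 of 3729 exonic bases with Tmigd3 on the same strand in GENCODE vM21, while the gene model that was counted had 4442. In rat ADORA3 was listed at 0 in both libraries.

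P2RX7, the ATP-gated channel, showed no called site difference. In mouse it had 268 (M4) and 114 (M8) reads in calvaria and 312 (M5) and 152 (M7) in tibia, or 25.5 and 12.7 against 26.0 and 15.3 CPM. The spread within a site was about as wide as the whole range. Its log2 fold change was -0.12 (SE 0.388, adjusted p = 0.951, edgeR quasi-likelihood fit, Benjamini-Hochberg adjusted), and its interval of 2 SE ran from -0.89 to 0.66.

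In macaque P2RX7 had 14 (G1), 23 (G3) and 25 (T1) reads in calvaria, or 2.55, 4.42 and 4.53 CPM, and 25 (G2), 24 (G4) and 63 (T2) in tibia, or 4.12, 4.15 and 9.19 CPM. T2 was the highest and the other 5 overlapped. Its log2 fold change was -0.61 (SE 0.504, adjusted p = 0.531, edgeR quasi-likelihood fit, Benjamini-Hochberg adjusted). In rat P2RX7 was listed at 0 in both libraries.

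**Figure D2:**
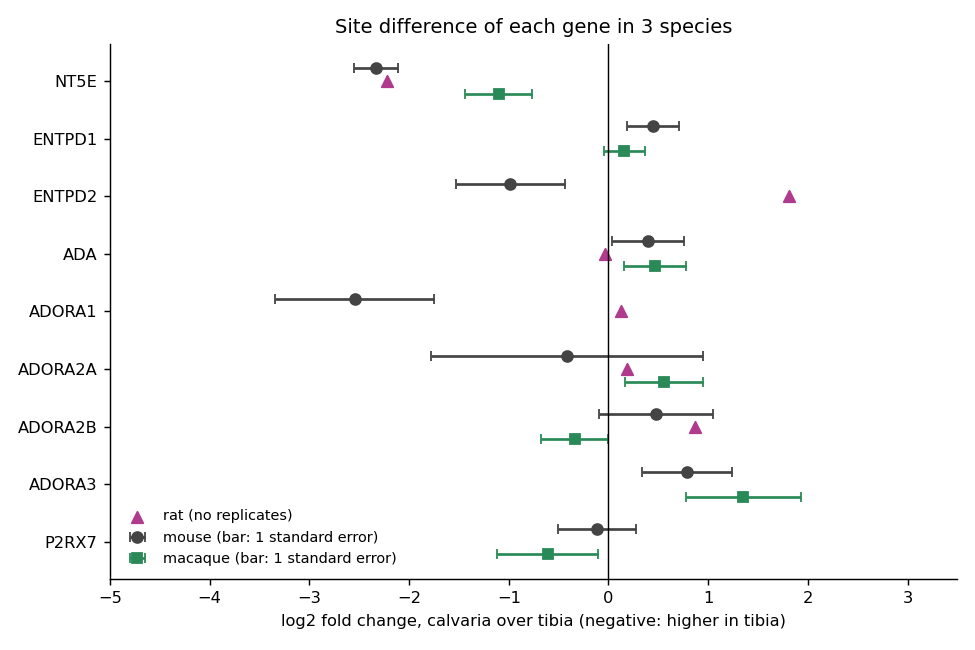
Log2 fold change of calvaria over tibia for the 9 members, with 1 SE for mouse and macaque and without error for rat, which had no replicates; members at 0 in a species have no point. NT5E lies left of 0 in all 3 species (-2.33, -2.22 and -1.1), and ENTPD2 and ADORA1 lie left of 0 in mouse and right of 0 in rat (1.81 and 0.13).

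Over the 10536 shared symbols, 0.304% were called in mouse (0.00949% towards calvaria and 0.294% towards tibia) and 26.7% in macaque, and 5.0% showed a species by site interaction at a false discovery rate under 0.2. Only ADA, ADORA2A, ADORA2B and NT5E had reads in every species and so entered that fit. Among the first 3 of these, edgeR's quasi-likelihood test called 0 in mouse and 0 in macaque, with 0 at an unadjusted p under 0.05 and 0 by the exact test or DESeq2. Over all symbols it called 0 of 8 in mouse, with 1 (ADORA1) at an unadjusted p under 0.05, 1 (ADORA1) by the exact test and 0 by DESeq2. Over all symbols the median log2 fold change of the members other than NT5E was 0.14 in mouse, beside 0.05 for all mouse symbols, and 0.31 in macaque, beside 0.03. NT5E, chosen for its site difference, is left out of the following counts of members whose sites did not overlap. In mouse these were 2 of 8 towards calvaria (ENTPD1 and ADORA3) and 2 of 8 towards tibia (ENTPD2 and ADORA1). Of all mouse symbols 17.6% did not overlap towards calvaria and 18.2% towards tibia. In either direction this held for 35.8% of all symbols and 40% of the shared ones. In macaque the sites did not overlap for 1 of 6 members (ADA, higher in calvaria). There 24.8% of all symbols (12.9% towards calvaria and 12% towards tibia) and 30.4% of the shared ones did not overlap. In the test of whether mouse and macaque differed in their site effect, 0 of the 6 members besides NT5E with reads in both were called and 0 had an unadjusted p under 0.05. Adjusted p lay between 0.613 (ADORA2B) and 0.953 (ADA) over the shared symbols (edgeR quasi-likelihood fit, Benjamini-Hochberg adjusted), and 4.89% of the symbols of the mouse and macaque fit were called.

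Levels of different genes were compared per kilobase of merged exons (CPM per kb). For macaque ADA these levels use the entry with introns alone, not the summed reads. In mouse calvaria ENTPD1 was the most abundant member at 13.5 ± 1.20 CPM per kb (SD, n = 2), followed by ADA at 8.32 ± 2.44 CPM per kb. P2RX7, NT5E and ADORA3 came next at 3.46, 3.30 and 2.83 CPM per kb and overlapped each other. ADORA2B and ENTPD2 stood at 1.66 and 1.37 CPM per kb, with ADORA2B overlapping ADORA3 and ENTPD2 overlapping ADORA2B. ADORA1 and ADORA2A were lowest, at 0.0940 and 0.0885 CPM per kb, and could not be told apart.

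In mouse tibia NT5E was at the top with 16.7 ± 1.22 CPM per kb, above ENTPD1 at 9.94 ± 0.451 CPM per kb without overlap. ADA followed at 6.31 CPM per kb and P2RX7 at 3.74, with ENTPD2 at 2.72 overlapping P2RX7. ADORA3 (1.64), ADORA2B (1.19), ADORA1 (0.564) and ADORA2A (0.118 CPM per kb) came last, none of these overlapping its neighbour.

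In rat calvaria the order was ADA at 15.6 CPM per kb, NT5E at 5.51, ENTPD2 at 5.00, ADORA2A at 2.09, ADORA1 at 1.15 and ADORA2B at 0.563. In rat tibia NT5E led with 25.8 CPM per kb over ADA with 16.0, and ENTPD2 fell to 1.39 CPM per kb, under ADORA2A at 1.83. ADORA1 was at 1.04 and ADORA2B at 0.274 CPM per kb in tibia, and no spread is known for any rat value.

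In macaque calvaria ENTPD1 led with 14.5 ± 0.873 CPM per kb (SD, n = 3), clear of all others. ADA (5.97), ADORA2B (4.58), ADORA3 (4.48), NT5E (3.26) and ADORA2A (3.23 CPM per kb) formed a group in which each overlapped the next, and P2RX7 was lowest of the detected members at 1.20 CPM per kb. In macaque tibia ENTPD1 remained on top at 12.9 ± 1.61 CPM per kb and NT5E was the next at 7.0 ± 1.63, overlapping ADORA2B at 5.80. ADA stood at 4.85 CPM per kb, and ADORA2A (2.19), P2RX7 (1.82) and ADORA3 (1.75 CPM per kb) overlapped each other.

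**Figure D3:**
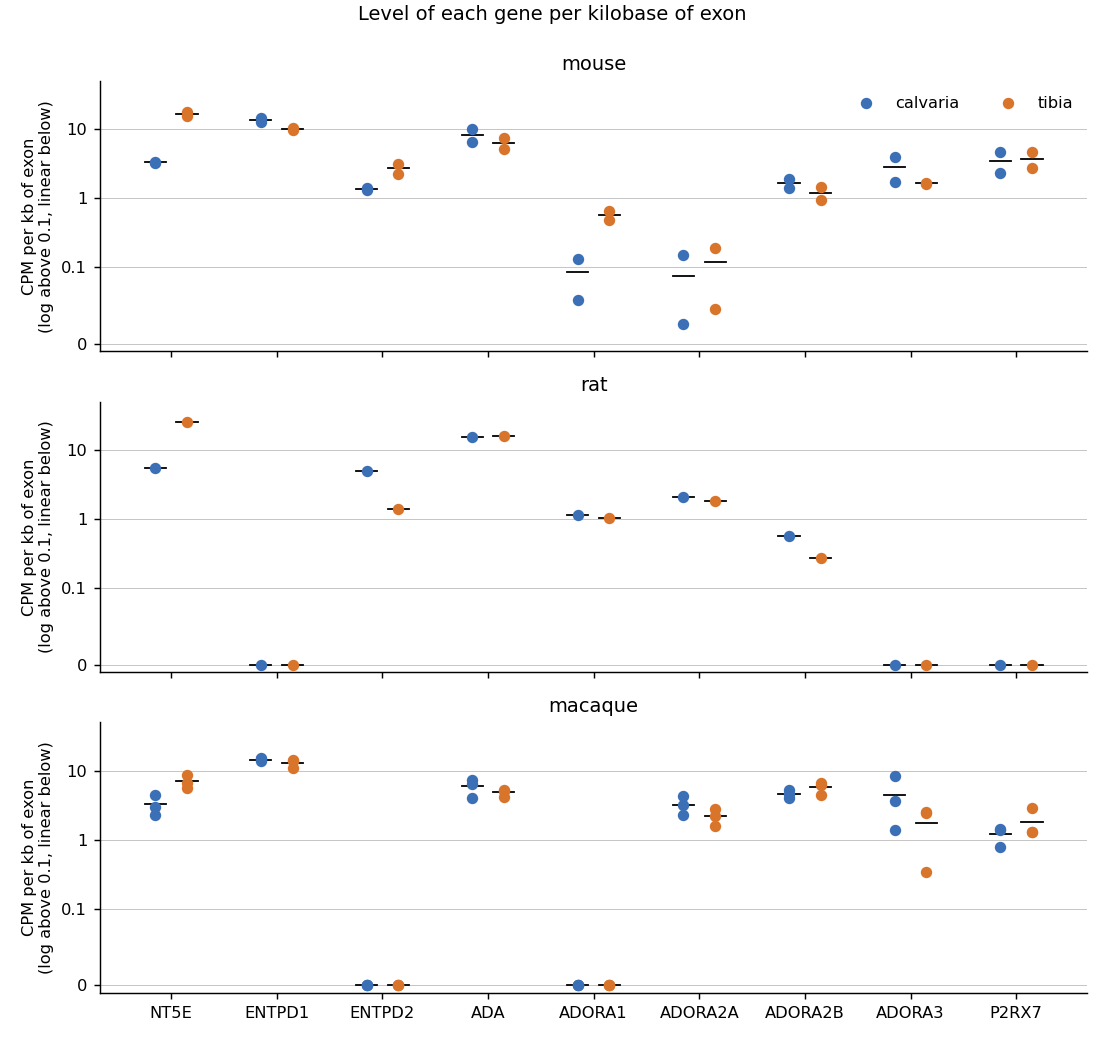
Level of each member in CPM per kilobase of exon in every library, on an axis that is logarithmic above 0.1 and linear below it; points are libraries and short lines are site means. NT5E moves from a mean of 3.30 in mouse calvaria to 16.7 in mouse tibia, whereas ENTPD1 is at 13.5 and 9.94, and members at 0 in a species sit on the base line.

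The ratio of NT5E to ENTPD1 transcripts differed accordingly between the sites in mouse and macaque, while enzyme amount and activity were not measured. Per kilobase, NT5E was 0.266 (M4) and 0.225 (M8) times ENTPD1 in the calvaria of mouse but 1.64 (M5) and 1.71 (M7) times in the tibia. In macaque the ratio was 0.308 (G1), 0.149 (G3) and 0.220 (T1) in calvaria and 0.469 (G2), 0.792 (G4) and 0.411 (T2) in tibia, without overlap. Against ADA, which clears adenosine, the mouse values of NT5E were 0.336 and 0.490 at the calvaria and 2.14 and 3.34 at the tibia. The NT5E to ADA ratio was 0.353 in rat calvaria and 1.61 in rat tibia, and 0.352 to 0.746 in macaque calvaria and 1.11 to 1.66 in macaque tibia. The macaque ratios to ADA rest on its entry with introns alone, and those on the summed reads were not computed. These ratios contain the NT5E difference for which the gene was chosen and are given without a test.

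The profile of NT5E over the 12 libraries was set against 7935 other genes by the root mean square difference of log2(CPM + 1), each centred on the mean of its species. The closest was STC2, a secreted glycoprotein, at 0.249, against a median of 0.922 over all genes compared. STC2 averaged 8.09 CPM in mouse calvaria and 27.1 in mouse tibia, 2.42 and 10.8 CPM in rat, and 3.92 and 9.99 CPM in macaque. The next were JAM2 (0.260), a junction protein of endothelium, LTBP1 (0.292), which binds latent TGF-beta, HEY2 (0.315), a transcription factor downstream of Notch, and PCDH7 (0.316), a protocadherin. ADA, the only other member abundant enough for this comparison, ranked 6157 at a distance of 1.05.

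Around these members, 55 other genes were listed by family name or role in nucleotide and adenosine handling. The groups were ectonucleotidases and phosphatases, adenosine transport and turnover, genes named as P2 receptors, and ATP and pyrophosphate release. A place in a group does not show that nucleotides are the main ligand or substrate of a gene product. Of the 55 genes, 33 had reads in all 3 species. In mouse edgeR's quasi-likelihood test called 0 of 33, with 4 at an unadjusted p under 0.05 and 1 each by the exact test and DESeq2. Their median log2 fold change was -0.02, beside 0.04 over all shared symbols. Over all mouse symbols 1 of 47 was called, or 2.13% beside a background of 2.28%.

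That gene was ENTPD3, an ectonucleotidase that splits ATP and ADP, and the exact test and DESeq2 called the same gene over the shared symbols. It had 259 (M4) and 146 (M8) reads in mouse calvaria and 641 (M5) and 461 (M7) in mouse tibia, or 24.6 and 16.2 against 53.3 and 46.4 CPM. Tibia was higher without overlap. The log2 fold change over all symbols was -1.29 (adjusted p = 0.0684, edgeR quasi-likelihood fit, Benjamini-Hochberg adjusted). In macaque ENTPD3 was not called (0.44, SE 0.312), and the site effect of mouse minus macaque was -1.74 (SE 0.472, adjusted p = 0.134, edgeR quasi-likelihood fit, Benjamini-Hochberg adjusted), which was a called difference. In rat ENTPD3 had 26 reads in calvaria and 12 in tibia, a log2 ratio of 0.93 and so the other way from mouse. Of the 33 genes, 6 were called in this test of the difference between mouse and macaque (ACPP, ADK, ENTPD3, P2RY1, P2RY10 and SLC29A3), or 18.2% beside 5.0% of the shared symbols. ADK, a kinase that returns adenosine to AMP inside cells, was called in neither species alone (mouse -0.73, macaque 0.42), and it and SLC29A3 are named here after their values were seen. SLC29A3 had only 5 (G1), 0 (G3) and 5 (T1) reads in macaque calvaria and 0 in each macaque tibia library, and ACPP also had few macaque reads. The SLC29A3 difference was at an adjusted p of 0.199 and was not called with library size alone (adjusted p = 0.201, both edgeR quasi-likelihood, Benjamini-Hochberg adjusted).

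In macaque 15 of the 33 were called, 8 higher in calvaria and 7 higher in tibia. That is 45.5% beside 26.7% of all shared symbols, of which 14.1% were towards calvaria and 12.6% towards tibia. The median log2 fold change of the list was 0.22, beside 0.01 over all shared symbols. By group, 6 of 11 ectonucleotidases and phosphatases were called and 5 of 10 genes of adenosine transport and turnover. So were 3 of 8 genes named as P2 receptors and 1 of 4 genes of ATP and pyrophosphate release. Over all symbols 16 of 39 were called, or 41.0% beside 19.7% of all macaque symbols, with ANKH, a transporter of pyrophosphate and ATP, among those higher in tibia (-0.55) and NT5C3A, an intracellular nucleotidase, among those higher in calvaria (0.90). These 2 are named because they were called over all symbols alone.

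The macaque genes higher in tibia were led by enzymes of the ENPP family. ENPP2 (autotaxin) had 106, 58.0 and 92.0 CPM in calvaria (G1, G3 and T1) and 171, 186 and 190 CPM in tibia (G2, G4 and T2), with a log2 fold change of -1.1 (SE 0.205, adjusted p = 0.00247, edgeR quasi-likelihood fit, Benjamini-Hochberg adjusted). ENPP1, which makes pyrophosphate from ATP, had 265, 151 and 170 CPM against 393, 391 and 288 CPM (log2 fold change -0.87, adjusted p = 0.0135 in the same edgeR test). For both, the sites did not overlap.

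ENPP3, a further enzyme of that family, had 12, 4 and 20 reads in macaque calvaria and 53, 49 and 31 in tibia (log2 fold change -1.71, adjusted p = 0.0560 in the same edgeR test). NT5C2, a nucleotidase inside cells, was at 403 to 428 CPM in calvaria and 502 to 840 CPM in tibia (-0.72, adjusted p = 0.0203, edgeR). P2RY1, an ADP receptor, had 28, 11 and 17 reads against 45, 34 and 83 (-1.30, adjusted p = 0.0834, edgeR). P2RY1 lay the other way in mouse, without being called (adjusted p = 0.583, edgeR), at 39.8 and 47.5 CPM in calvaria and 26.5 and 26.2 CPM in tibia, and the difference in its site effect was called (mouse minus macaque 2.02, SE 0.573, adjusted p = 0.154, edgeR quasi-likelihood fit, Benjamini-Hochberg adjusted).

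Of the macaque genes higher in calvaria, AHCY, which splits S-adenosylhomocysteine into adenosine and homocysteine inside cells, had 135, 174 and 173 CPM in calvaria and 77.0, 76.3 and 99.4 CPM in tibia (log2 fold change 0.93, SE 0.181, adjusted p = 0.00322, edgeR quasi-likelihood fit, Benjamini-Hochberg adjusted). P2RX1, an ATP-gated channel of platelets, had 34, 19 and 23 reads against 8, 6 and 4 (2.24, SE 0.614, adjusted p = 0.0263, edgeR). P2RY10, a receptor of lymphocytes, had 12.6, 13.4 and 13.9 CPM against 5.77, 5.71 and 7.30 CPM (1.08, adjusted p = 0.0424, edgeR). CD38, an NAD-consuming surface enzyme of leukocytes, had 11.1, 7.11 and 6.16 CPM against 4.45, 2.77 and 2.63 CPM (1.30, adjusted p = 0.0689, edgeR). ACPP, a phosphatase that can also split AMP, had 7, 2 and 11 reads against 0, 0 and 1, too few for a fold change (adjusted p = 0.0856, edgeR).

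Of these, P2RY10 had higher values in mouse tibia than in mouse calvaria (27.5 and 30.7 against 18.4 and 17.5 CPM) without being called there (adjusted p = 0.616, edgeR), and its site effect differed between the species (mouse minus macaque -1.80, SE 0.420, adjusted p = 0.0779, edgeR quasi-likelihood fit, Benjamini-Hochberg adjusted). The site effect of ACPP also differed (adjusted p = 0.159, edgeR), with mouse reads of 43 (M4) and 67 (M8) against 95 (M5) and 74 (M7). Macaque platelet markers (PPBP, PF4, ITGA2B and GP9), called in 4 of 4, summed to 363 to 529 CPM in calvaria and 22 to 45.1 CPM in tibia, where GP9 was at 0. Erythroid markers, called in 4 of 4 with an entry, summed to 2236 to 2846 and 430 to 669 CPM, with none at 0. B cell markers, called in 2 of 2 tested, summed to 44.7 to 74.3 and 15.5 to 35.4 CPM, with CD79B at 0. The part of these cells in the differences of P2RX1, P2RY10 and CD38 was not tested.

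**Figure D4:**
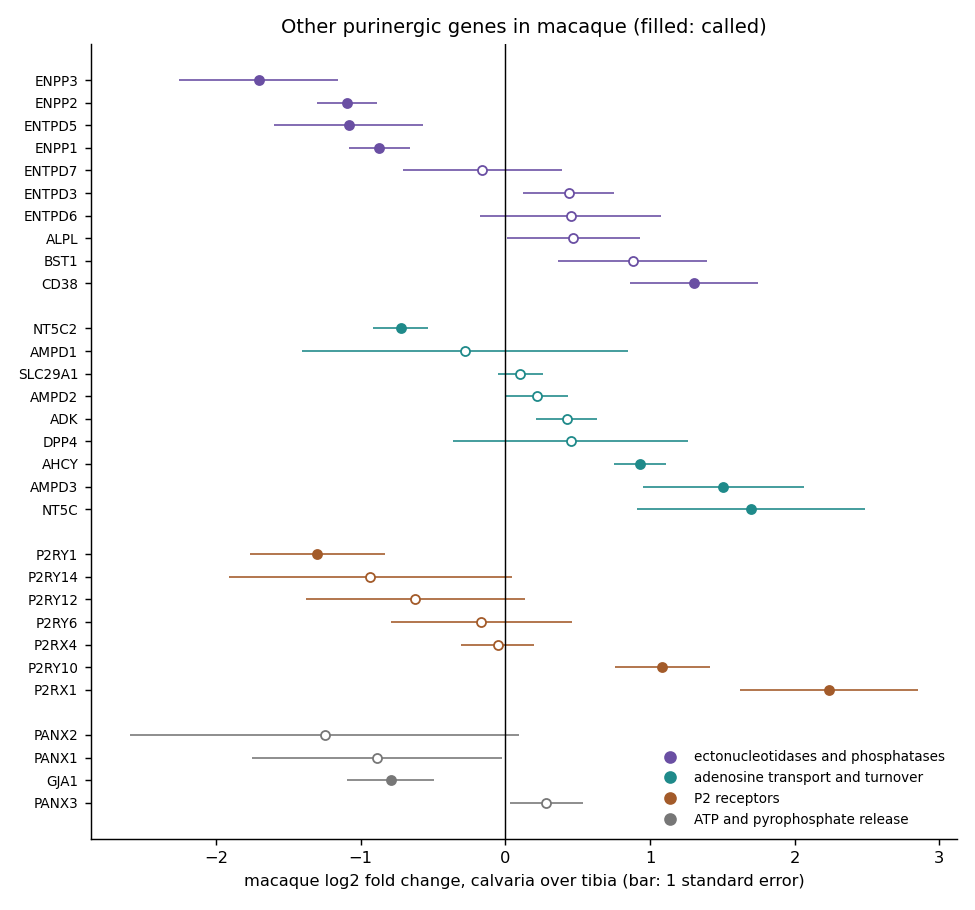
Macaque log2 fold change of calvaria over tibia (bar: 1 SE) for the other purinergic genes with reads in all 3 species, grouped by role, with filled points for called genes; ACPP, SLC29A3 and P2RY2 had 1 read or none in tibia and are not drawn. ENPP2 (-1.1), ENPP1 (-0.87) and ENPP3 (-1.71) lie towards tibia, and P2RX1 (2.24), CD38 (1.30) and AHCY (0.93) towards calvaria.

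In rat 2 of the 33 were past the threshold, both towards tibia, beside 7.16% of all shared symbols. These were AMPD1, which deaminates AMP in skeletal muscle, with 3 reads in calvaria and 52 in tibia, and PANX2, a pannexin, with 0 and 10 reads. They were named after their values were seen. The 5 muscle markers summed to 10.1 CPM in rat calvaria, where CKM was at 0, and to 730 CPM in rat tibia, and their part in the AMPD1 difference was not tested. ENPP2 had 17.1 CPM in rat calvaria and 38.9 CPM in rat tibia (log2 ratio -1.18), and in mouse 51.5 (M4) and 18.9 (M8) CPM in calvaria and 69.6 (M5) and 62.0 (M7) CPM in tibia. ENPP2 was thus higher in every tibia library of the 3 species than in any calvaria library of the same species. Without overlap, 20.8% of the shared symbols were higher in tibia in mouse and 14.5% in macaque. The share that did so in all 3 species was not counted. Only the macaque difference of ENPP2 was called (mouse -0.90, SE 0.471, adjusted p = 0.723, edgeR quasi-likelihood fit, Benjamini-Hochberg adjusted).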

How the data were processed

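Poly(A)+ RNA of the 12 libraries was mapped by the authors with HISAT2 and counted with HTSeq-count on merged exons, ignoring strand, while the submitters' processing notes also list BWA 0.7.10-r789 and edgeR 3.16.5. The deposited tables hold raw counts of reads per gene, which were used here, and a normalized signal of the authors that equals the count times 1 constant per library, which was not used. The deposited exonic length of each gene gave levels per kilobase, for macaque ADA with the length and reads of the entry with introns alone.

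Rows naming no gene (0.00261% to 0.0663% of the reads of a library) were left out, and rows sharing a symbol in upper case were summed, which for macaque ADA joined an entry without introns. In macaque 5939 LOC numbers received a symbol from RefSeq. A separate edgeR 4.0.16 fit (R 4.3.3, TMM factors, quasi-likelihood test, p adjusted by Benjamini-Hochberg) was made for mouse and for macaque over 10536 symbols with a read in every species. ENTPD1, ENTPD2, ADORA1, ADORA3 and P2RX7 had no read in some species and were fitted over all symbols of a species. An SE was taken as the absolute log2 fold change over the root of the F statistic. In rat, counts plus 1 read were scaled by library size alone. A count of 0 was taken to allow up to 3 reads. Intervals cover counting error only, since reads carried no molecular identifiers. Levels are given for libraries between 7951585 and 16826535 reads, so a gene at 1 CPM rests on few reads.

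Named genes were the 9 members, the 5 other purinergic genes of smallest p in each direction and species among those called, any known partner of a member, and the 5 genes most like NT5E (mean of at least 1 CPM in each species). Members, lists and rules were chosen with earlier results of these data known. The text states skull and tibia as paired without naming pairs, so the fits have no block. After site means were removed, macaque deviations over 8691 genes correlated at 0.142 (G1, G2), 0.243 (G3, G4) and 0.383 (T1, T2) for assumed pairs and at -0.296 to 0.0632 for others, and in mouse the check is uninformative. On simulated data with 200 genes changed by a log2 fold change of 2 among 10536 genes, the mouse fit recovered 185 (17.8% of its calls were unchanged genes) and the macaque fit 199 (12.7%). Only genes above a minimum mean count were changed, and all genes of a species were given the same relative variability. These shares therefore do not give the power for the real genes. Mouse positions are from GENCODE vM21 on GRCm38. Alternatives were run with DESeq2 1.42.0, and figures used Python 3.11.15 and matplotlib 3.10.9.

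Besides the lists described with the results, T cell, B cell, osteoblast, osteoclast, endothelial, muscle and cartilage markers were summed. In mouse 0 of these were called over the shared symbols, where 0.304% of all were, and 2 of 5 osteocyte markers were called, as in macaque. Over all mouse symbols 3 of 4 cartilage, 2 of 5 endothelial, 1 of 6 T cell and 4 of 6 osteocyte markers were called, all higher in tibia. The background there was 2.28%, and 0 B cell, osteoblast, osteoclast and muscle markers were called. In macaque, over the shared symbols, the background was 26.7%, with 14.1% towards calvaria and 12.6% towards tibia. Called higher in calvaria were 2 of 2 B cell, 3 of 4 osteoclast and 1 of 3 cartilage markers. Called higher in tibia were 2 of 5 osteoblast and 1 of 4 muscle markers. Of the T cell markers 0 of 4 were called, and of the endothelial markers 0 of 5.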

Additional observations from a re-analysis of the deposited data

Results flagged for a closer look

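For 3 members the rat libraries pointed the other way from a species in which every library of one site lay above every library of the other. None of these differences between species was tested, because rat had 1 library a site. How many of all symbols do the same was not counted, and the rat median log2 ratio over the shared symbols was -0.20. ENTPD2 had a rat log2 ratio of calvaria over tibia of 1.81 (118 reads in calvaria, 30 in tibia), whereas both mouse tibia libraries were above both mouse calvaria libraries (log2 fold change -0.98, SE 0.545). ADORA1 had a rat log2 ratio of 0.13 (30 and 25 reads) beside -2.55 (SE 0.801) in mouse. ADA had a rat log2 ratio of -0.03 (189 and 177 reads) beside 0.47 (SE 0.314) in macaque. The ADA contrast depends on the processing in both species: the rat value was 0.17 with TMM factors, and on the macaque entry with introns alone the sites overlapped (62, 52 and 34 reads in calvaria, 39, 47 and 53 in tibia). The counting intervals of the rat ratios include 1 for ADORA1 (0.624 to 1.95) and ADA (0.792 to 1.21) and lie above it for ENTPD2 (2.39 to 5.57).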

How the results depend on the processing

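The direction of NT5E was the same under every alternative run in the 3 species. Leaving out each library gave -2.40 to -2.25 in mouse and -1.40 to -0.90 in macaque. Members other than NT5E called numbered 0 to 1 in mouse without each library (ADA without M8), and 1 in macaque over all symbols (ADORA3). Other purinergic genes called in mouse were 1 with the exact test, 1 with DESeq2, 1 over all symbols, and 0 to 18 without each library (18 without M4, 13 without M8). A lone calvaria library was then assumed to vary like the tibia, and calls over all shared symbols also went from 32 to 5024 and 2623. Without M4, ADORA1, ADORA3, ENTPD1, ENTPD2 and P2RX7 were called over all symbols, and without M8 ADORA1. In macaque the other purinergic calls fell from 15 to 6 at a false discovery rate of 0.05 and to 8 with a log2 fold change over 1.1, and were 10 to 14 without each library. In rat, members past the threshold rose from 1 to 2 with TMM factors and to 2 with a log2 threshold of 1 (ENTPD2 both times). Signs turned for ENTPD1 in macaque with library size alone (-0.040), ADA in rat with TMM factors (0.17), and without single libraries for mouse ADORA2A (-2.01 to 0.90) and P2RX7 (-0.72 to 0.31); the cause was not tested. Library size alone shifted the macaque median over all symbols from 0.03 to -0.18. The replicate block for assumed pairs left 0 members other than NT5E called in both species over the shared symbols and 0 (mouse) and 16 (macaque) other purinergic genes, and changed no call of a member.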
